A study of Bos taurus with 30 samples.

Results

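bta-miR-143 and bta-miR-145, the mature miRNAs of neighbouring hairpins, were followed across all 30 small RNA libraries of the hypothalamic arcuate nucleus (ARC) of bull calves. They were chosen by name, with earlier results of these data known. They are 2 of the 1030 mature bovine miRNAs in the table. Of these, 863 had a read in at least 1 library and 476 passed the filter on low counts. Both members passed that filter. The calves were Holstein-Friesian bulls fed a high (HI, n = 15) or a moderate (MOD, n = 15) plane of nutrition between 2 and 12 weeks of age, and each gave 1 library. The HI calves received 1.5 kg of milk replacer in 10 litres per day with concentrates to appetite, and the MOD calves 0.5 kg of milk replacer in 4 litres with 0.5 kg of concentrates. All 30 calves shared breed, sex and tissue. The labels give neither a sequencing run nor a farm for a calf.

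miR-143 and miR-145 are processed from hairpins on 1 primary transcript and are best known from the smooth muscle cells of blood vessels, where they hold the contractile state of the cell and act on actin and cell shape regulators. Pericytes, which wrap capillaries, and fibroblasts also carry them, while neurons and most glia carry little. In brain tissue the pair is best known from vessel walls and meninges. In the RefSeq annotation of assembly ARS-UCD2.0, MIR143 (gene ID 100313363) and MIR145 (gene ID 790996) were neighbours on chromosome 7. A long non-coding RNA gene, LOC132345768, was listed beside them, with IL17B on one side and the casein kinase gene CSNK1A1, followed by ARHGEF37, on the other. The files use an earlier assembly, so no coordinates are given.

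miR-143 was among the most abundant miRNAs of the ARC. Levels are counts per 1000000 reads (CPM) over library sizes that the authors scaled. miR-143 ranged from 34310 to 313867 CPM over the 30 calves, with a median of 95107 CPM and a mean of 108756 ± 66768 (SD). It took between 3.97% and 24.5% of all reads counted in a library, with a median of 9.50%. It held rank 1 in 7 libraries, rank 2 in 13, rank 3 in 4, rank 4 in 5 and rank 6 in 1, and by its mean level it held rank 2 among all tested miRNAs.

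miR-145 was far less abundant. It ranged from 356 to 1399 CPM, with a median of 653 CPM and a mean of 680.5 ± 247 (SD). Its rank within a library lay between 73 and 133, and its share of reads between 0.0407% and 0.109%. Both members were deeply sampled, since the smallest count was 249460 reads for miR-143 and 2586 reads for miR-145. Total reads counted ran from 6291376 to 21083250 per library, in a shallower class of 21 libraries up to 8988039 reads and a deeper class of 9 from 17193358 reads.

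The calf with the least of both members was the same, HI calf A37840. The calf with the most of both was MOD calf A41971. From the lowest to the highest calf, miR-143 spanned 9.15-fold and miR-145 spanned 3.93-fold. On the log2 scale the standard deviation over calves was 0.84 for miR-143 and 0.50 for miR-145, beside a median of 0.37 over the 476 tested miRNAs. Of these, 35 varied more than miR-143 and 125 more than miR-145. In whole tissue, fewer cells of a type and less RNA per cell cannot be told apart.

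The question of the diets was taken first. miR-145 was lower in HI than in MOD calves, but this did not pass the test adjusted over all miRNAs, and neither did miR-143. The 15 HI calves held miR-145 at 356 CPM at the lowest, 512 at the median and 1097 at the highest, with a mean of 572 ± 194 (SD). The 15 MOD calves held it at 386, 786 and 1399 CPM, with a mean of 789 ± 252 (SD). The groups overlapped, although 14 of 15 HI calves lay below the MOD median and 2 of 15 MOD calves below the HI median.

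limma, fitted over all 476 tested miRNAs on log2(CPM + 0.25), gave miR-145 a log2 fold change of -0.46 (SE 0.16) for HI against MOD, with an unadjusted p of 0.00797 and an adjusted p of 0.878. A permutation test of the same difference, on 15 against 15 calves and two-sided, gave p = 0.0102. As background, limma called 0% of the 476 miRNAs at an adjusted p under 0.1 with a fold change above 1.5, edgeR's quasi-likelihood test called 0 and DESeq2 called 1. An unadjusted p under 0.05 was reached by 21 of the 476, which is 4.41%, so miR-145 was 1 of 21 where miR-143 was not among them.

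miR-143 lay at 34310 CPM at the lowest, 90151 at the median and 238738 at the highest in HI calves, with a mean of 103296 ± 69407 (SD). In MOD calves it lay at 44676, 103589 and 313867 CPM, with a mean of 114216 ± 65979 (SD). The groups overlapped, with 11 of 15 HI calves below the MOD median and 4 below the lowest MOD calf. The HI calves filled both ends of the range, as 4 of the 5 lowest and 4 of the 5 highest calves were HI. The log2 fold change was -0.27 (SE 0.30), with an unadjusted p of 0.364, an adjusted p of 0.982 in limma and a permutation p of 0.378.

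**Figure D1:**
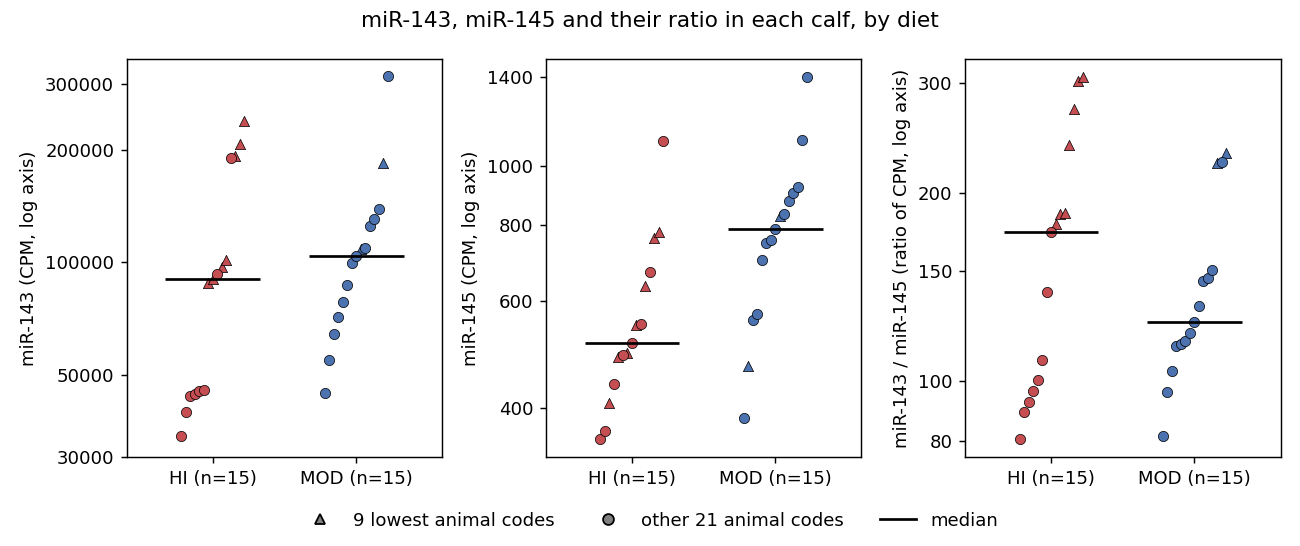
Levels of miR-143 and miR-145 in CPM and the ratio of miR-143 to miR-145, on log axes, in 15 HI and 15 MOD calves. Each point is 1 calf, triangles are the 9 calves with the lowest animal codes, circles the other 21, and bars are group medians. The miR-145 medians are 512 CPM in HI and 786 CPM in MOD calves, and the groups overlap in all 3 panels.

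Both differences were taken again within classes of libraries. Earlier results of these data had shown that many miRNAs differ along the animal codes. The 9 calves with the lowest codes comprised 7 HI and 2 MOD calves, and the remaining 21 comprised 8 HI and 13 MOD calves. What the codes stand for is not labelled. Among the 21 other calves, miR-145 averaged 560 ± 239.5 CPM (SD, n = 8) under the HI diet against 810 ± 254 CPM (SD, n = 13) under the MOD diet, a log2 difference of -0.56 (exact permutation p = 0.0206). miR-143 in the same calves differed by -0.78 (exact permutation p = 0.0331), from medians of 44827 CPM in HI and 99326 CPM in MOD. Among the 9 lowest codes the differences were -0.12 for miR-145 (exact permutation p = 0.639) and -0.09 for miR-143 (exact permutation p = 0.75), with only 2 MOD calves. The difference of these diet differences was not significant for either member (permutation p = 0.270 for miR-145 and 0.263 for miR-143).

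With code class added to the model, the log2 difference between diets was -0.45 for miR-145 (permutation p = 0.0215 within classes) and -0.62 for miR-143 (permutation p = 0.0415 within classes). The adjusted p of limma with that term was 0.999 for both. Taken by depth, miR-145 differed by -0.44 in the 21 shallower libraries (exact permutation p = 0.0407) and by -0.44 in the 9 deeper ones (exact permutation p = 0.274).

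The libraries differed in miRNAs known from the pituitary, which borders the hypothalamus. Whether these came from pituitary tissue or from cells of the ARC was not tested. The tested members of a list of 10 pituitary miRNAs (miR-7, miR-375, the miR-200 family and the miR-182/183/96 cluster) were high in 9 calves, 5 of them HI, on the upper side of the largest gap in the list's score. The summed level of the 10 lay between 10003 and 100739 CPM in these 9 calves and between 2289 and 7130 CPM in the other 21. By diet it ran from 2325 to 100739 CPM in HI and from 2289 to 84373 CPM in MOD calves, and miR-200b and miR-96 were at 0 in at least 1 library. In these 9 calves miR-143 had a median of 189730 CPM, against 86998 CPM in the other 21. miR-145 had medians of 779 and 558 CPM in the same calves. Without the 9 calves, miR-145 differed between diets by -0.55 on the log2 scale (permutation p = 0.00177, n = 10 and 11, adjusted p = 0.267 in limma) and miR-143 by -0.47 (permutation p = 0.0913). The part of the pituitary miRNAs in the levels of the pair was not tested.

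The ratio of miR-143 to miR-145 does not depend on how a library is scaled. It ranged from 80.6 in HI calf A81983 to 307 in HI calf A37824, with a median of 135 and a mean of 156 ± 65.7 (SD, n = 30). Counting error was small beside this range, as the 95% exact binomial interval was 78.4 to 82.9 for the lowest ratio and 297 to 316 for the highest. PCR copies are not independent molecules, so these intervals cover counting error only.

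The ratio was 80.6 at the lowest, 173 at the median and 307 at the highest in HI calves, and 81.5, 124 and 232 in MOD calves. The diets overlapped between 81.5 and 232, and HI calves gave 4 of the 5 highest and 3 of the 5 lowest ratios. The mean log2 ratio was 0.19 higher in HI than in MOD (SE 0.21, permutation p = 0.376). Adding the code class as a term turned the sign, to -0.16 (permutation p = 0.247).

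The ratio differed along the animal codes. In the 9 calves with the lowest codes it ran from 178 to 307, with a median of 232 and a mean of 236 ± 49.1 (SD). In the other 21 it ran from 80.6 to 224, with a median of 115 and a mean of 121 ± 34.0 (SD). A single calf of the 21, MOD calf A41971 at 224, lay above the lowest of the 9, and none lay above their median. That calf was also among the 9 with high pituitary list scores, in which the ratio had a median of 224 against 119 in the calves with low scores, a log2 difference of 0.62.

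The mean log2 ratio was 0.98 higher in the low codes (SE 0.13), a 1.97-fold difference (exact permutation test, two-sided, p = 6.99e-07). The boundary between the classes came from these same libraries, so this p is not independent evidence of the split. The Spearman correlation of the ratio with the order of all 30 codes, which uses no boundary, was -0.60 (permutation p = 0.00069) and Pearson's r with that order was -0.63 (permutation p = 0.00022). Within the classes the ratio had no clear order, with rho 0.50 in the 9 calves (exact permutation p = 0.178) and 0.02 in the 21 (permutation p = 0.930).

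**Figure D2:**
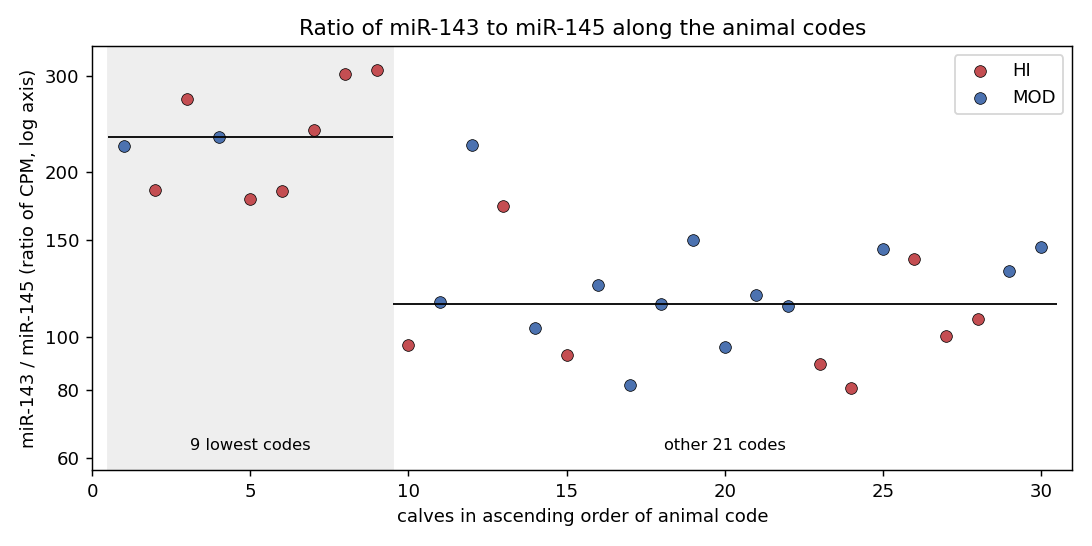
Ratio of miR-143 to miR-145 (log axis) in each of the 30 calves, placed in ascending order of animal code and coloured by diet. Shading marks the 9 lowest codes and lines are class medians, 232 in the 9 and 115 in the other 21, with MOD calf A41971 at 224 the only one of the 21 to reach the range of the 9.

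The class difference was present in both diets, at 1.13 among HI calves (7 against 8, exact permutation p = 0.000311) and at 0.87 among MOD calves (2 against 13, exact permutation p = 0.0190). It was 0.87 among the 21 calves with low pituitary list scores (exact permutation p = 4.91e-05) and 0.92 among the 9 with high scores (exact permutation p = 0.0159). All 9 low-code libraries were in the shallower class, and among the 21 shallower libraries the difference was 1.00 (exact permutation p = 3.74e-05). Deeper and shallower libraries themselves differed by -0.39 (exact permutation p = 0.0884), with all the low codes on the shallower side. Among the other codes alone, the mean log2 ratio was 6.90 in the 9 deeper libraries and 6.86 in the 12 shallower ones.

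Which member carried the class difference depended on the scaling. As deposited, miR-143 was 0.78 higher on the log2 scale in the low codes (exact permutation p = 0.0168), all 9 of these calves lying above the median of the others, and miR-145 was -0.20 apart (exact permutation p = 0.340). With library size as the only scaling, the median difference of all 476 tested miRNAs moved by -0.27 and both members moved with it. miR-143 was then 0.51 higher (exact permutation p = 0.0590) and miR-145 was -0.47 apart (exact permutation p = 0.00734), while the ratio kept its difference of 0.98.

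limma with diet as a term called 136 of 476 miRNAs between the code classes at an adjusted p under 0.1 as deposited, which is 28.6%. miR-143 was among them, with a log2 fold change of 1.03 (SE 0.30, adjusted p = 0.0134), and miR-145 was not, at -0.01 (SE 0.19, adjusted p = 0.960).

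Over the 30 calves miR-143 and miR-145 rose together. Pearson's r of log2(CPM + 0.25) was 0.75 and Spearman's rho 0.71, each with a permutation p of 1e-05, the smallest that 100000 resamples can give. Leaving out the 2 calves that lay farthest from the miR-145 median gave r 0.66. It was 0.79 within HI calves (rho 0.77) and 0.77 within MOD calves (rho 0.70).

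Within the code classes r was higher, while rho was higher only in the other 21 calves. In the other 21 calves r was 0.94 and rho 0.94 (permutation p = 1e-05 for each), and in the 9 low-code calves r was 0.90 (exact permutation p = 0.00401) and rho 0.70 (exact permutation p = 0.0433). The pooled relation held 56.1% of the variance, and the relation after removing the class means held 87.2%. Across depth, r was 0.96 in the 9 deeper libraries and 0.73 in the 21 shallower ones, which hold both code classes. Among the 21 calves with low pituitary list scores r was 0.69 (permutation p = 0.00043). Among the 9 with high scores it was also 0.69 (exact permutation p = 0.0331), but it fell to 0.18 without the 2 farthest calves, so in those 9 it rested on them. Over the 11 correlations of the pair that were computed, the adjusted permutation p was 0.0331 or lower for every r and 0.0476 or lower for every rho but that of the 9 calves with high scores, rho 0.50 (adjusted permutation p = 0.178).

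With the code class as a term, log2 miR-143 rose by 1.43 (SE 0.11) for each unit of log2 miR-145, where a constant ratio would give a slope of 1. The slope was 1.42 (SE 0.26) within the 9 low codes, 1.43 (SE 0.12) within the other 21, and 1.2 (SE 0.14) without the calves with high pituitary list scores. Within the diets, with no class term, it was 1.73 (SE 0.37) in HI and 1.16 (SE 0.26) in MOD calves, the latter within its error of a constant ratio. At equal miR-145, miR-143 was 1.06 (SE 0.11) higher on the log2 scale in the low codes.

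**Figure D3:**
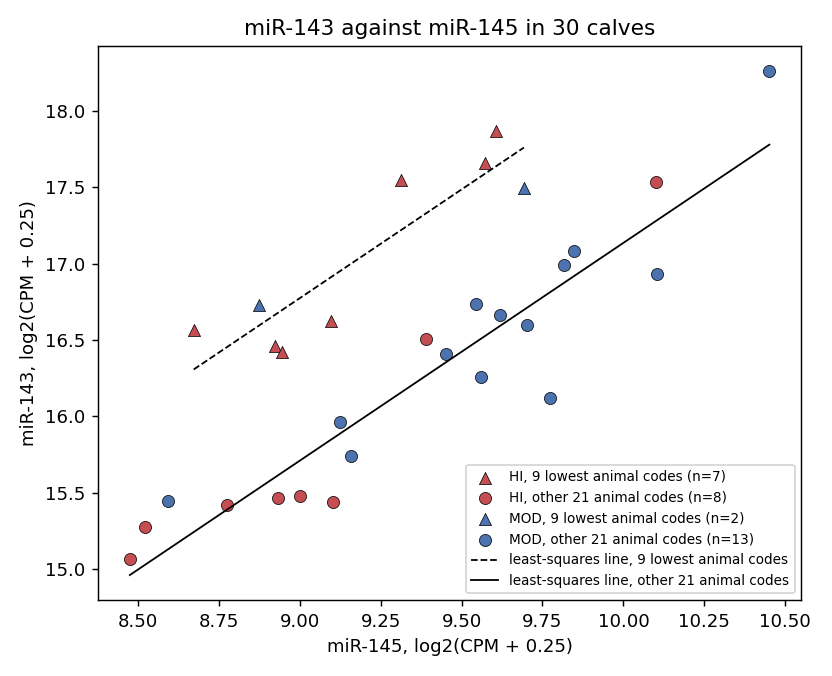
log2(CPM + 0.25) of miR-143 against miR-145 in 30 calves, with colour for diet, symbol for animal code class and a least-squares line in each class. The 9 low-code calves lie on a line above the other 21, and r is 0.90 and 0.94 within the classes against 0.75 over all calves.

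To place the pair among other neighbours, 439 tested miRNAs were matched to the RefSeq annotation, and 531 pairs lay within 10 kb of each other. These pairs share libraries and many of them share clusters, so the values are a description. The median r of a pair was 0.50, and 113 pairs had a higher r than the 0.75 of miR-143 and miR-145. After removing the code class means, the median was 0.53, and 23 pairs exceeded the 0.93 of miR-143 and miR-145.

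The imbalance between the mates was also on the large side. Their median ratio of 135 compared with a median of 7.35 over the pairs, and 49 pairs were more unequal. The absolute log2 difference of the ratio between code classes was 0.98 for miR-143/miR-145 and 0.23 at the median pair, with 30 pairs above. Once the code class was removed, the spread of the log2 ratio, 0.35, was close to the median pair at 0.33, and 244 pairs varied more.

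The other 474 tested miRNAs were then ordered by Pearson's r with each member over the 30 calves. All points share libraries and scaling, so these values carry no p. For miR-145, miR-143 had the highest r of all as deposited. With library size as the only scaling it had r 0.55, below the 0.59 of miR-455-3p. For miR-143, miR-145 came only at rank 17, and at rank 2 once diet, depth class and code class were removed from both.

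The miRNA most like miR-143 was miR-140, known from cartilage and made from an intron of WWP2, with r 0.94 (rho 0.92). It kept r 0.93 after the class terms and 0.89 without the calves with high pituitary list scores, but had 0.53 with library size as the only scaling. Next came miR-155, an immune cell miRNA, at 0.81, miR-152 at 0.80, miR-11986b at 0.80 and miR-199a-5p, a mesenchymal miRNA, at 0.80. Under the other scalings these 4 lay between 0.58 and 0.84. The lowest were miR-7180 at -0.78, miR-628 at -0.77 and miR-487b at -0.76, the last from the large imprinted miRNA cluster of the brain. Without the calves with high pituitary list scores these were -0.56, -0.55 and -0.44, and the 4 that followed miR-140 lay between 0.56 and 0.68. Other immune cell miRNAs were less close to miR-143 than miR-155 was. Over all calves miR-223 had r 0.64, miR-146a 0.39, miR-142-3p 0.15, miR-142-5p 0.02 and miR-150 -0.66.

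After miR-143, those most like miR-145 were miR-455-3p at 0.67, miR-152 at 0.64, miR-199a-5p at 0.64, its cluster mate miR-214 at 0.64 and the muscle miRNA miR-133a at 0.63. The lowest were miR-2387 at -0.64, miR-154c at -0.63 and miR-541 at -0.62. With library size as the only scaling, the 5 named after miR-143 lay between 0.43 and 0.59, and the 3 lowest were -0.40, -0.31 and -0.39. Without the calves with high pituitary list scores the 5 lay between 0.42 and 0.62, and the 3 lowest were -0.48, -0.31 and -0.46. miR-145 had fewer close relations than miR-143, with r above 0.5 to 31 miRNAs and below -0.5 to 17, against 80 and 109 for miR-143.

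The ratio was most like miR-99b at 0.86, miR-140 at 0.86, miR-192 at 0.85, miR-1271 at 0.81 and miR-25 at 0.77, and least like miR-342 at -0.88, miR-877 at -0.87 and miR-188 at -0.85. All 8 of these differed between the code classes at an adjusted p under 0.1, as did 28.6% of all miRNAs tested, and miR-140, miR-192 and miR-25 did so with log2 fold changes of only 0.32, 0.40 and 0.41. After the class terms miR-1271 fell to 0.29, miR-99b to 0.57 and miR-192 to 0.62, where miR-140 had 0.84 and miR-25 0.73. miR-342, miR-877 and miR-188 then had -0.68, -0.59 and -0.51. Within the low codes they had -0.25, -0.20 and -0.67, and within the other codes -0.70, -0.76 and -0.47. With library size as the only scaling, miR-140 had r 0.26 and miR-192 0.25 with the ratio, while miR-342, miR-877 and miR-188 lay between -0.89 and -0.92.

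**Figure D4:**
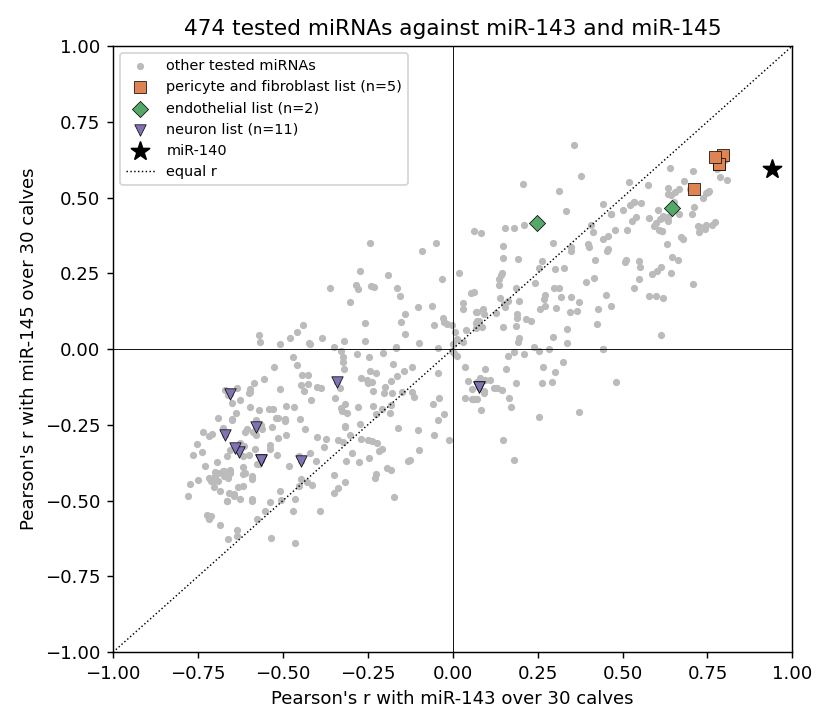
Pearson's r with miR-143 (horizontal) and with miR-145 (vertical) over 30 calves for each of 474 tested miRNAs, one point each, with 3 lists and miR-140 marked. The members of the pericyte and fibroblast list lie at r 0.71 to 0.80 with miR-143, and those of the neuron list mostly below 0 with both.

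Cell type lists were set beside the pair next. Each list's score is the mean over its tested members of the centred log2(CPM + 0.25), and 9 lists with 3 measures gave 27 relations, over which p-values were adjusted. The pericyte and fibroblast list held miR-199a-3p, miR-199a-5p, miR-199b, miR-199c and miR-214, mesenchymal miRNAs from paired clusters. miR-199a-3p and miR-199c had almost the same values, and reads that they share cannot be told apart. miR-199a-3p ranged from 57.4 to 1420 CPM with a median of 113 CPM, and miR-214 from 1.33 to 52.4 CPM with a median of 4.28 CPM.

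This list rose with both members. Its r was 0.78 with miR-143 (rho 0.74, adjusted permutation p = 0.000135 for r) and 0.61 with miR-145 (rho 0.60, adjusted permutation p = 0.00238). Leaving out the 2 farthest calves gave r 0.78 and 0.58. Within the low codes r was 0.90 with miR-143 (exact permutation p = 0.00100) and 0.71 with miR-145 (exact permutation p = 0.0380), and within the other codes 0.75 and 0.71. Without the calves with high pituitary list scores r was 0.66 and 0.57. Both relations kept their direction with library size as the only scaling, at 0.71 and 0.39. With the ratio the list had r 0.60 (rho 0.54, adjusted permutation p = 0.00238), which became 0.39 without the calves with high pituitary list scores.

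The endothelial list, the 2 arms of miR-126 from an intron of EGFL7, was less close. Its r was 0.46 with miR-143 (rho 0.44, adjusted permutation p = 0.0280) and 0.48 with miR-145 (rho 0.44, adjusted permutation p = 0.0236). Of the arms, miR-126-5p had r 0.64 with miR-143 and miR-126-3p had 0.25. Without the 2 farthest calves r was 0.34 and 0.37, and within the low codes -0.29 and -0.03 (exact permutation p = 0.437 and 0.947). In the other codes it was 0.59 and 0.64 (permutation p = 0.00442 and 0.00163). The relation with miR-143 turned to -0.14 with library size as the only scaling.

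The neuron list, 11 tested rows of miR-124, miR-9, miR-128, miR-129, miR-137, miR-138 and miR-153 of which 9 were distinct, ran the other way. The neuronal miR-124a was present in every library, from 826 to 9705 CPM, and miR-9-5p from 11292 to 73041 CPM. Its r was -0.72 with miR-143 (rho -0.68, adjusted permutation p = 0.000135) and -0.71 with the ratio (rho -0.71, adjusted permutation p = 0.00018). Without the 2 farthest calves these were -0.64 and -0.69, within the low codes -0.75 and -0.75, and within the other codes -0.69 and -0.68. Without the calves with high pituitary list scores they were -0.44 and -0.70. With miR-145, r was -0.40 (rho -0.25, adjusted permutation p = 0.0580). It was -0.57 in the low codes (exact permutation p = 0.0971), -0.59 in the other codes (permutation p = 0.00153) and 0.09 without the calves with high pituitary list scores. Single members of the neuron list ran from r 0.08 for miR-129-5p to -0.67 for miR-137 with miR-143. With the ratio they ran from 0.22 for miR-129-5p to -0.83 for miR-138.

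Of the other lists, the one of smooth muscle phenotype miRNAs, which holds miR-21, miR-221, miR-222, miR-24, miR-26a, miR-10a, miR-195 and miR-365, had r 0.41 with miR-143 and 0.49 with miR-145 (adjusted permutation p = 0.0491 and 0.0202). The first turned to -0.60 with library size as the only scaling. Without the calves with high pituitary list scores, r was 0.02 and 0.12. The 10 tested members of the list had a median r of 0.09 with miR-143 and 0.22 with miR-145. With miR-143 they ran from 0.79 for miR-21-5p to -0.37 for miR-222. The erythroid list had r 0.47 and 0.38 (adjusted permutation p = 0.0258 and 0.0710). The leukocyte and microglia list had r 0.43 and 0.56 (adjusted permutation p = 0.0437 and 0.00634). In the erythroid list miR-451 and miR-144 had r 0.47 and 0.48 with miR-143, and miR-486, the most abundant, -0.10. Members of the leukocyte and microglia list ran from 0.81 for miR-155 to -0.66 for miR-150 with miR-143. With library size as the only scaling, the leukocyte and microglia list had r -0.16 with miR-143. Without the calves with high pituitary list scores it had 0.28. Without the 2 farthest calves, r fell to 0.23 and 0.02 for the erythroid list and to 0.25 and 0.40 for the leukocyte and microglia list, and the smooth muscle phenotype list had 0.41 and 0.30. Both blood and immune lists had r below 0 in the low codes, at -0.65 and -0.77 for the erythroid and -0.24 and -0.42 for the leukocyte and microglia list. In the other codes the same lists had r 0.67 and 0.53, and 0.73 and 0.67. The striated muscle list had r 0.36 and 0.37 (adjusted permutation p = 0.0861 and 0.0814). Its members were split, with r 0.78 for miR-133a and 0.68 for miR-133b with miR-143, but -0.54 for miR-208b and -0.66 for miR-499. The oligodendrocyte list had r -0.22 and -0.18 and the ependyma and choroid plexus list 0.01 and 0.02, with adjusted permutation p between 0.333 and 0.984. Within the low codes the oligodendrocyte list had r -0.86 with miR-143 (exact permutation p = 0.00157) and -0.94 with the ratio (exact permutation p = 0.000463), against -0.001 and -0.04 in the other codes.

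With the ratio these 6 lists and the endothelial list had adjusted permutation p between 0.0891 and 0.994. In the other codes the ratio had r 0.74 with the erythroid list (permutation p = 0.00018). It had 0.66 there with the leukocyte and microglia list (permutation p = 0.00107). In the low codes these were -0.33 and 0.04. With library size as the only scaling, the smooth muscle phenotype list had r -0.84 with the ratio. The pituitary list split the calves into separate classes, so no pooled r is given for its score. miR-143 was 1.05 higher on the log2 scale in the 9 calves with high scores than in the other 21, and miR-145 was 0.43 higher. Within the classes r with miR-143 was 0.59 in the 9 high calves (exact permutation p = 0.0846) and -0.07 in the 21 low ones (permutation p = 0.757), or 0.80 and -0.58 without the 2 farthest calves of each. The liver miRNA miR-122 did not pass the filter.

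The members of the lists were compared between the diets one by one, and the lists as wholes were not tested. Of the 58 tested members of the 10 lists, 0 had an unadjusted p under 0.05 between HI and MOD, beside 4.41% of all miRNAs tested. In the pericyte and fibroblast list 2 of 5 members had a log2 fold change below 0, with a median of 0.01, and miR-199a-3p had a mean of 318 ± 400 CPM (SD, n = 15) under the HI diet against 285 ± 345 CPM (SD, n = 15) under the MOD diet. The median log2 fold change was 0.64 in the pituitary list, with 0 of 8 below 0, and -0.39 in the ependyma and choroid plexus list, with 5 of 6 below 0. In the neuron list 9 of 11 were below 0 with a median of -0.07, and in the striated muscle list 4 of 4 with a median of -0.11. Both arms of miR-126 had log2 fold changes of -0.07 and -0.09 and adjusted p of 0.982 in limma. Over all 476 tested miRNAs the median log2 fold change was -0.002 and 241 were below 0.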

How the data were processed

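Mature miRNAs were measured by sequencing of the ARC of 30 calves. For library preparation the methods name a small RNA kit and the labels a stranded RNA kit. Reads were trimmed by the authors with cutadapt (2.6 per the labels, another version in the methods), limited to lengths from 15 to 28 bases, cleared of other small RNA classes and counted on known bovine miRNAs by miRDeep2 against ARS-UCD1.2. The deposited signal values, called counts, are CPM over TMM-scaled library sizes in form. Dividing by the worth of 1 read gave whole reads (within 0.1) for 94.5% to 97.9% of values under 200 reads, and for both members in every library.

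The members and lists were chosen with earlier results of these data known. Because the values were not counts, limma 3.58.1 (R 4.3.3, trend) on log2(CPM + 0.25) was used, after edgeR's filterByExpr on recovered reads. edgeR 4.0.16 and DESeq2 1.42.0 on recovered reads, 4 scalings, pseudocount 1, no filter, class terms and leaving out each calf were alternatives. Calls between the diets needed a fold change above 1.5 and an adjusted p under 0.1, and those between code classes the adjusted p alone. Single values were tested two-sided by permutation, with 100000 resamples or, with a group under 10, exactly. The code was tested on simulated data. Other miRNAs were named as the 5 highest and 3 lowest by r for each member and the ratio, with the members of the endothelial and the pericyte and fibroblast lists. 11 cell type lists were used, of which 10 had a tested member. One library per calf came from separate animals. No sequences are shown, and mRNA and protein data were not analysed here.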

Additional observations from a re-analysis of the deposited data

How the results depend on the processing

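No paired analysis was possible because each calf received 1 diet and the labels give no number, litter or farm that ties a calf of one diet to a calf of the other. The log2 fold change of both members between the diets stayed below 0 under every alternative, with no adjusted p under 0.267, from -0.62 to -0.14 for miR-143 and from -0.55 to -0.43 for miR-145, and leaving out each calf in turn gave -0.38 to -0.16 and -0.53 to -0.40. The number of miRNAs called between the diets was 0 except for 1 with DESeq2, and ranged from 0 to 1 when calves were left out, with 1 when HI calf A77860 was absent and 1 when MOD calf A97854 was. The diet difference of the log2 ratio turned from 0.19 to -0.16 with the code class as a term and to -0.16 with the depth class as well. Leaving out each calf kept it between 0.11 and 0.25, and the correlation of miR-143 with miR-145 between 0.70 and 0.78. Under the other 6 settings that correlation ran from 0.55 with library size only to 0.92 on residuals. The difference between code classes became 0.51 for miR-143 and -0.47 for miR-145 with library size only, and 0.56 and -0.42 with totals that left out the members. The ratio kept its difference of 0.98 under all of these.

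Many relations with the cell type lists changed with the scaling or with the calves included. With library size only, r with miR-143 became -0.14 for the endothelial, -0.0218 for the ependyma and choroid plexus, 0.19 for the erythroid, -0.16 for the leukocyte and microglia, -0.46 for the oligodendrocyte, -0.60 for the smooth muscle phenotype and -0.0481 for the striated muscle list. With miR-145 it became 0.28 for the endothelial, 0.23 for the erythroid, -0.0739 for the neuron, 0.16 for the smooth muscle phenotype and 0.32 for the striated muscle list. With the ratio it became -0.39 for the endothelial, -0.14 for the ependyma and choroid plexus, -0.51 for the leukocyte and microglia, -0.37 for the oligodendrocyte, -0.84 for the smooth muscle phenotype and -0.31 for the striated muscle list.

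With totals that left out the members, r with miR-143 was 0.19 for the endothelial, 0.34 for the erythroid, 0.14 for the leukocyte and microglia, -0.39 for the oligodendrocyte and -0.19 for the smooth muscle phenotype list. With miR-145 it was 0.34 for the erythroid and -0.11 for the neuron list. With the ratio it was -0.14 for the endothelial, -0.0917 for the ependyma and choroid plexus, -0.28 for the leukocyte and microglia, -0.63 for the smooth muscle phenotype and -0.14 for the striated muscle list.

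On residuals after diet, depth class and code class, the ratio had r 0.61 with the erythroid, 0.57 with the leukocyte and microglia, -0.38 with the oligodendrocyte and 0.49 with the striated muscle list, miR-143 had 0.48 with the striated muscle list, and miR-145 had -0.0359 with the ependyma and choroid plexus list. Without the calves with high pituitary list scores, r with miR-143 was 0.37 for the erythroid, 0.28 for the leukocyte and microglia, 0.19 for the oligodendrocyte and 0.0212 for the smooth muscle phenotype list. With miR-145 it was 0.37 for the endothelial, 0.0141 for the erythroid, 0.33 for the leukocyte and microglia, 0.0908 for the neuron, 0.12 for the smooth muscle phenotype and 0.28 for the striated muscle list. With the ratio it was 0.50 for the erythroid, 0.30 for the oligodendrocyte, 0.39 for the pericyte and fibroblast and -0.0798 for the smooth muscle phenotype list. The cause of these changes was not tested. The relations of the pericyte and fibroblast list with both members, and of the neuron list with miR-143 and the ratio, kept their direction and an unadjusted p under 0.05 in these 4 settings.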
